A study of Mus musculus with 6 samples.

Results

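56 genes for developmental transcription factors that are known from embryonic stem cells and embryos as targets of Polycomb repression were followed in muscle stem cells, among 39059 genes counted. The members were a list given by name, from Pax2 to Runx2, and each was matched by symbol to 1 gene in the files. The libraries were 3 from Lmna Δ8-11 -/- mice, called mutant below and HOM in the plots, and 3 from Lmna Δ8-11 +/+ mice, called wild type, or WT. Both groups were C57BL/6J mice at postnatal day 19, and the RNA was total RNA of satellite cells, which serve as stem cells for muscle repair, sorted from hind limb. Lmna encodes the nuclear lamins A and C, and the labels name the Δ8-11 allele without a tissue-restricted driver. They speak of 3 mice per condition and do not tie a library to its own animal, so each p-value reflects no more than the library-to-library spread, which may in part be technical.

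Polycomb proteins keep genes silent through a pair of complexes. PRC2 methylates histone H3 on lysine 27, and PRC1 reads that mark and compacts or ubiquitylates chromatin. Their best-known targets are the transcription factors that choose between cell fates in the embryo, whose start sites lie in stretches rich in the dinucleotide CG. In a satellite cell, genes that specify neurons, gut, heart or kidney are normally off, while factors of limb mesenchyme and of the cells around muscle can be on. The files hold RNA counts only, so whether Polycomb proteins sat on these genes in these cells was not measured.

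Promoter sequence was a property that the choice of genes did not use, and it is shown first because CG-rich starts are the usual landmark of Polycomb targets. RefSeq promoter windows of 300 bases (250 before and 50 after a start, build GRCm38.p6) were found for 41 of the 56 genes, 51 windows in all. Windows were not found in the table for Alx4, Dlx5, Dlx6, En2, Gata4, Gata6, Hand1, Irx5, Sox9, Sox17, Tbx3, Tbx5, Tbx15, Wt1 and Zic2. Below are stretches before the start of Zic1, which was lower in mutant libraries, of Evx1 and Neurod1, which had no read in any library, and of Runx2, chosen after its values were seen as a CG-poor contrast. They are written 5′ to 3′ on the strand of the gene, from the far end of the window up to the gene's outermost annotated start, with each CG in capitals. Zic1 is at chr9:91365811-91366018 (minus strand), Evx1 at chr6:52313248-52313497 (plus), Neurod1 at chr2:79456752-79456886 (minus) and Runx2 at chr17:44814798-44814877 (minus).
Zic1: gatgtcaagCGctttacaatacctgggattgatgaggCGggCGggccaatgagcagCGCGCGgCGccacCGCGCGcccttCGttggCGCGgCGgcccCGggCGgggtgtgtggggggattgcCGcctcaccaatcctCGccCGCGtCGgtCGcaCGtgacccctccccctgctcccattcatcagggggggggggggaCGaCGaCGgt
Evx1: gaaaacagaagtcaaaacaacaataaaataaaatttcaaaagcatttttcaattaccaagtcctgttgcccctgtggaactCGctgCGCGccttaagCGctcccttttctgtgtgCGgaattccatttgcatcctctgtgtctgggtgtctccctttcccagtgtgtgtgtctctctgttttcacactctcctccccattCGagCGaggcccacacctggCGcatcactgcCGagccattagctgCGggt
Neurod1: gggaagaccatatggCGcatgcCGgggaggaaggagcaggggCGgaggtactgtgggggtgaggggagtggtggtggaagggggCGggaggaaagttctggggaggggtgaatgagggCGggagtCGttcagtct
Runx2: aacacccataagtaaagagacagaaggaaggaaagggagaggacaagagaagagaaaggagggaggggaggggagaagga
The Zic1 stretch holds 26 CG in 208 bases, Evx1 10 in 250, Neurod1 6 in 135 and Runx2 0 in 80.

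Over whole windows the listed genes were rich in CG. The dinucleotide, which reads the same on both strands, occurred at a median of 22 per window in their windows and 7 in all 32851 windows of the table. The median ratio of observed to expected CG was 0.791 in the listed genes' windows, against 0.384 in all windows. A GC share of at least 55% with a ratio of at least 0.65 was met by 30 of their 51 windows (58.8%) and by 28.1% of all windows. The windows of the table came from 27025 genes and were not split by gene type. The listed genes are all protein-coding, and a comparison with protein-coding genes alone was not made. Windows of the 101 other developmental transcription factors described further on were close to the listed genes, with 53.9% CG-rich and a median ratio of 0.726. Members with enough reads to test and members without had a like share, at 8 of 13 windows (61.5%) and 22 of 38 (57.9%). The richest window was that of Pou4f1, a factor of sensory neurons, with 57 CG. The poorest, with 2 each, were 1 of the windows of Runx1 and the window of Runx2, factors of blood and bone with a pair of alternative starts, and the other Runx1 window in the table had a ratio of 1.01.

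**Figure D1:**
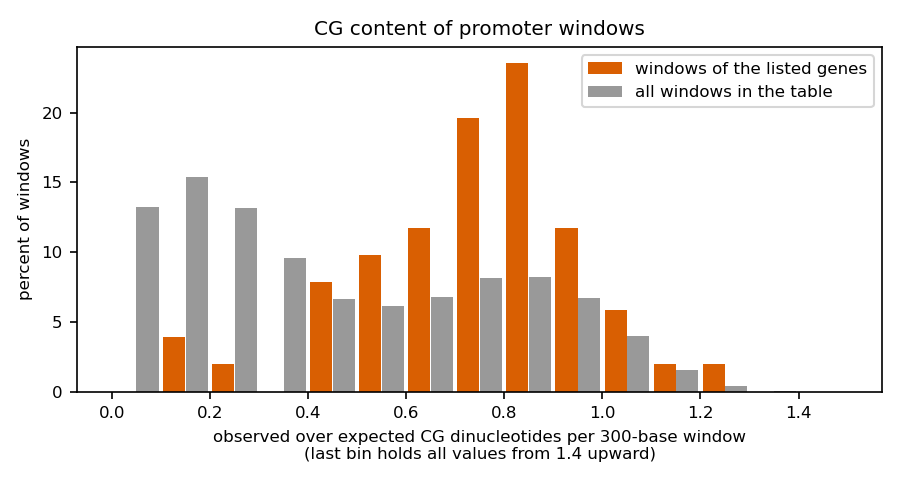
Percent of promoter windows (y axis) by the ratio of observed to expected CG dinucleotides per 300-base window (x axis), for the 51 windows of the listed genes (orange) and all 32851 windows of the table (grey). The listed genes' windows centre near their median of 0.791, while all windows pile up at low ratios with a median of 0.384.

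Reads assigned to genes ran from 6613636 to 9552751 per library. The cell label was only partly borne out by markers. Lmna stood at 436, 375 and 451 CPM in mutant libraries, against 842, 939 and 1057 CPM in wild-type libraries (in CPM, a gene's count relative to the TMM-scaled gene total of its library; log2 ratio of mutant to wild type -1.17, SE 0.14, adjusted p = 0.0010 by edgeR), a count over the whole gene that checks the labels in part. Pax7, the defining satellite cell factor, was at 23.1, 52.4 and 19.5 CPM in mutant libraries, against 86.9, 66.3 and 74.9 CPM in wild-type libraries, and 12 satellite cell markers including it summed to 1484, 2475 and 1485 CPM in mutant libraries, against 2837, 2820 and 2885 CPM in wild-type libraries. 9 pericyte and smooth muscle markers summed to 12709 to 13502 CPM in mutant and 11579 to 16392 CPM in wild-type libraries, and 8 Schwann cell and glial markers to 2960 to 3943 CPM in mutant and 3647 to 4620 CPM in wild-type libraries, so RNA of other cell types was plentiful. The pericyte and smooth muscle sum held opposite calls by edgeR. Pdgfrb (log2 ratio 1.02, adjusted p = 0.0036), Kcnj8 (1.38, 0.0081) and Abcc9 (1.58, 0.0056) were higher in mutant libraries, and Myh11 (-0.58, 0.0492) was lower. Of all genes tested, 9.67% were called higher and 11.5% lower. 9 markers of fibro-adipogenic cells, the mesenchymal cells between muscle fibres, summed to 1659, 2314 and 1486 CPM in mutant libraries, against 4723, 4836 and 4526 CPM in wild-type libraries, without overlap. By edgeR, 6 of the 9 were called lower and 1 higher. Col3a1, at 2779, 2788 and 2374 CPM in wild-type libraries, was among the lower ones and made up much of that sum. Pdgfra was the higher one, at 171, 103 and 124 CPM in mutant libraries, against 64.9, 54.4 and 97.4 CPM in wild-type libraries. In such bulk RNA, fewer cells of a type and less RNA per cell cannot be told apart. Mutant replicate 2 stood nearer to wild type in satellite cell markers, so results that rest on it are given without it as well. It was also the only mutant library with Y-linked reads, which wild-type replicates 2 and 3 held too, and Gm42418 took 1.30% of its gene reads and 1.39% of those of wild-type replicate 2, against 0.091% to 0.18% in the other libraries.

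Most of the 56 genes were silent or nearly so in both genotypes. 11 had no read in any library, 15 had 1 to 9 reads over the 6 libraries, and 12 more had at least 10 but too few for a test of their own. The remaining 18 passed the filter on low counts and were tested. A single read was worth 0.106 to 0.159 CPM, depending on the library. All 56 together made up 276, 319 and 278 CPM in mutant libraries, against 313, 304 and 341 CPM in wild-type libraries, so the sums of the genotypes overlapped.

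**Figure D2:**
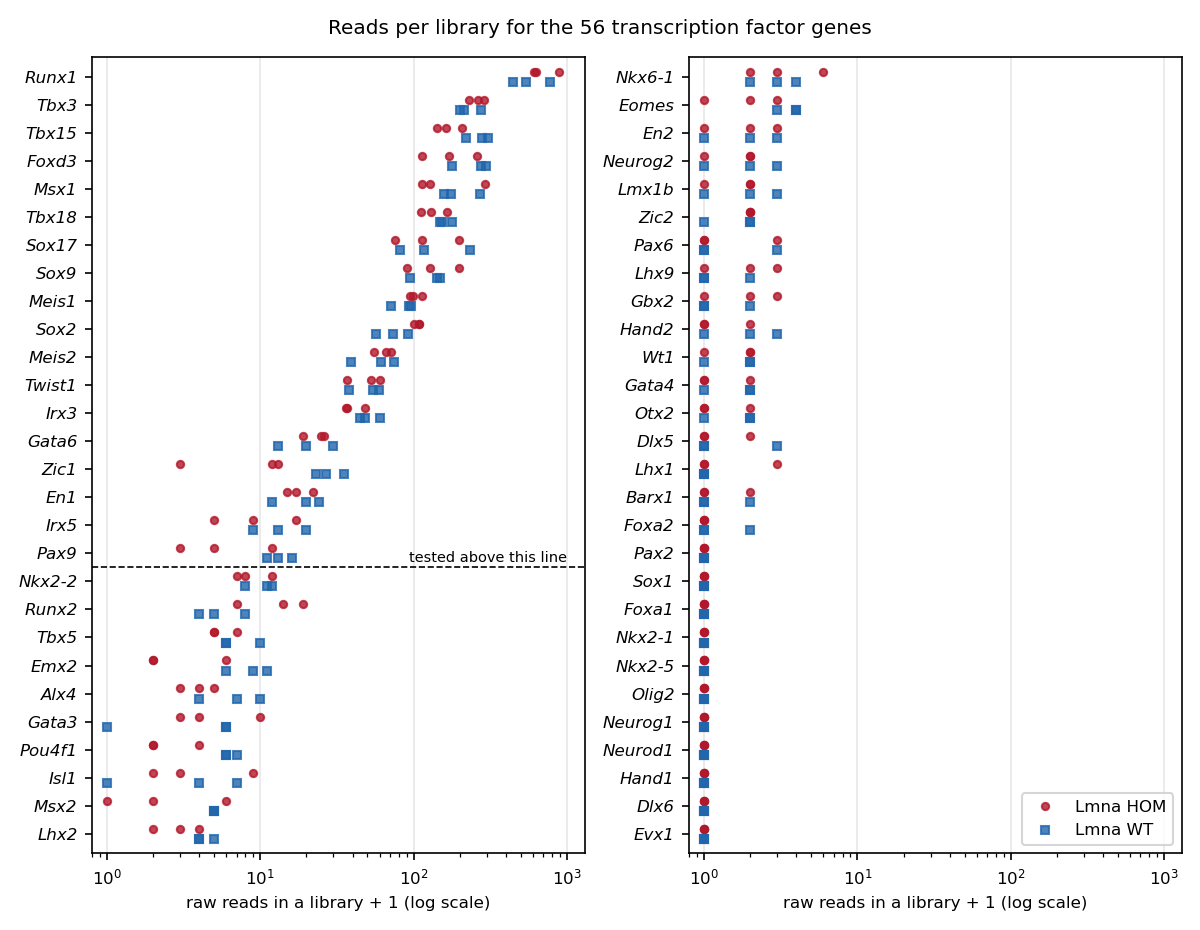
Raw reads plus 1 in each library (x axis, log scale) for each of the 56 genes (rows, by total reads), with mutant libraries as red circles above wild-type libraries as blue squares. The 18 genes above the dashed line were tested, and the 11 at the bottom right had 0 reads in all 6 libraries.

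Of the 18 genes tested, 2 were lower in mutant cells and 0 higher. In all, 21.1% of genes tested were called. edgeR's quasi-likelihood test with Benjamini-Hochberg adjustment over 14099 genes was used, at a threshold of 0.05. Of all genes tested, 11.5% were called lower and 9.67% higher, so the share of members called lower (11.1%) was near the background. An unadjusted p under 0.05 was found for 5 of the 18 members and for 5056 of all 14099 genes tested, a larger share. DESeq2 also called 2 lower and 0 higher. The median log2 fold change of the 18 was -0.19, beside -0.0038 over all genes tested, with 11 below and 7 above 0. Mutant values lay wholly below wild type for 6 members and wholly above for 1, where 20.6% and 20.2% of all genes tested did so. Without mutant replicate 2, 5 members were lower, Foxd3, Msx1 and Pax9 in addition to Tbx15 and Zic1, and without wild-type replicate 1 only Tbx15 was. Calls in either direction over all genes tested moved too. They numbered 4002 of 14531 without mutant replicate 2 and 1602 of 14457 without wild-type replicate 1, against 2980 of 14099 with all libraries.

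Among the 19 factors of limb and mesenchyme, 11 were tested (median log2 fold change -0.29). Of these, 1 fell and 0 rose, where 11.5% of all genes tested fell and 9.67% rose. The gene that fell was Tbx15, a T-box factor needed for limb skeleton and for the fibre type of limb muscle (ENSMUSG00000027868, chromosome 3, positions 99240381 to 99354259, plus strand, build GRCm38). Tbx15 stood at 19.9, 21.8 and 21.2 CPM in mutant libraries, against 32.3, 34.8 and 38.9 CPM in wild-type libraries. The groups did not overlap, and the libraries of each genotype lay close together. The log2 fold change was -0.75 (SE 0.13, adjusted p = 0.0041), from 510 mutant reads and 804 wild-type reads, and it ran from -0.82 to -0.68 when any 1 library was left out, with adjusted p from 0.0030 to 0.0198. A test against a fold change of 1.5 did not call it (adjusted p = 0.335). The fibro-adipogenic marker sum given above was also lower in every mutant library, though 1 of its markers, Pdgfra, was called higher. The part of that sum in Tbx15 and in the other mesenchymal factors was not tested.

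Tbx18, a T-box factor of pericytes and ureter mesenchyme, and Irx3, an Iroquois homeobox factor of limb and neural patterning, did not overlap between genotypes either but did not pass the test. Tbx18 had 18, 17.4 and 14.4 CPM in mutant libraries, against 20.4, 23.5 and 19.3 CPM in wild-type libraries (log2 ratio -0.34, SE 0.15, adjusted p = 0.141). Irx3 had 5.04, 4.98 and 4.58 CPM in mutant libraries, against 6.83, 6.99 and 5.97 CPM in wild-type libraries (log2 ratio -0.44, SE 0.21, adjusted p = 0.159). The mutant libraries were the lower ones for both genes. Irx5, the neighbour and partner of Irx3 in one gene cluster, was scarcer, with 4, 16 and 8 reads in mutant and 12, 8 and 19 reads in wild-type libraries, and the groups overlapped (log2 ratio -0.58, SE 0.46, adjusted p = 0.395).

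Msx1 and Pax9 depended on mutant replicate 2. Msx1 is a homeobox repressor that holds myogenic precursors back from differentiating. It stood at 15.8, 31.0 and 16.5 CPM in mutant libraries, against 31.0, 25.0 and 22.1 CPM in wild-type libraries. Mutant replicate 2 was as high as the highest wild-type library, and the other mutant libraries were below all wild-type ones. The log2 fold change was -0.29 (SE 0.25, adjusted p = 0.429) with all libraries and -0.69 (adjusted p = 0.0148) without mutant replicate 2. Pax9, a paired-box factor of tooth, palate and vertebral column, had 4, 11 and 2 reads in mutant libraries, against 12, 10 and 15 reads in wild-type libraries. Scaled for depth its groups did not overlap (log2 ratio -1.21, SE 0.49, adjusted p = 0.103), and without mutant replicate 2 it passed (log2 ratio -1.96, adjusted p = 0.0256). Among mutant libraries the satellite cell marker sum, the Gm42418 share and the Y-linked reads were also highest in replicate 2, and their part in these results was not tested.

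The other tested limb and mesenchyme factors did not pass the test. Tbx3, a T-box repressor of limb and mammary development, had 32, 30.3 and 34.3 CPM in mutant libraries, against 31.8, 33.5 and 25.1 CPM in wild-type libraries (log2 ratio 0.10, SE 0.14, adjusted p = 0.660). Tbx3os1, a noncoding gene on the opposite strand that shares 115 exon bases with Tbx3 and was picked out after its values were seen, had 31.0, 21 and 37.2 CPM in mutant libraries, against 12.8, 6.36 and 16.6 CPM in wild-type libraries. Its groups did not overlap, and it was higher in mutant cells (log2 ratio 1.29, SE 0.30, adjusted p = 0.0154), though not without mutant replicate 3 (adjusted p = 0.0566) or wild-type replicate 1 (adjusted p = 0.0504). How the counting treated strand is not stated by any source at hand. Reads of one gene of the pair may thus have been counted for the other or left out as ambiguous.

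Sox9, the cartilage factor, had 17.8, 20.9 and 11.7 CPM in mutant libraries, against 17.1, 14.9 and 18 CPM in wild-type libraries, with a log2 fold change of 0.01 (SE 0.21), whose sign turned under 7 of 16 alternatives. Twist1, a basic helix-loop-helix repressor of myogenesis in mesenchyme, had 7.27, 3.82 and 7.72 CPM in mutant libraries, against 6.13, 5.88 and 7.36 CPM in wild-type libraries. The groups overlapped for both genes, and mutant replicate 2 was the lowest library for Twist1. Meis1 and Meis2 are homeobox cofactors of Hox proteins. Meis1 had 13.1, 11.9 and 12.8 CPM in mutant libraries, against 11.0, 11.1 and 11.7 CPM in wild-type libraries. It was the member whose mutant values lay wholly above wild type, by a small step that did not pass (log2 ratio 0.16, SE 0.16, adjusted p = 0.494). Meis2 had 7.55, 7.42 and 8.51 CPM in mutant libraries, against 6.94, 6.04 and 9.27 CPM in wild-type libraries, with overlap.

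**Figure D3:**
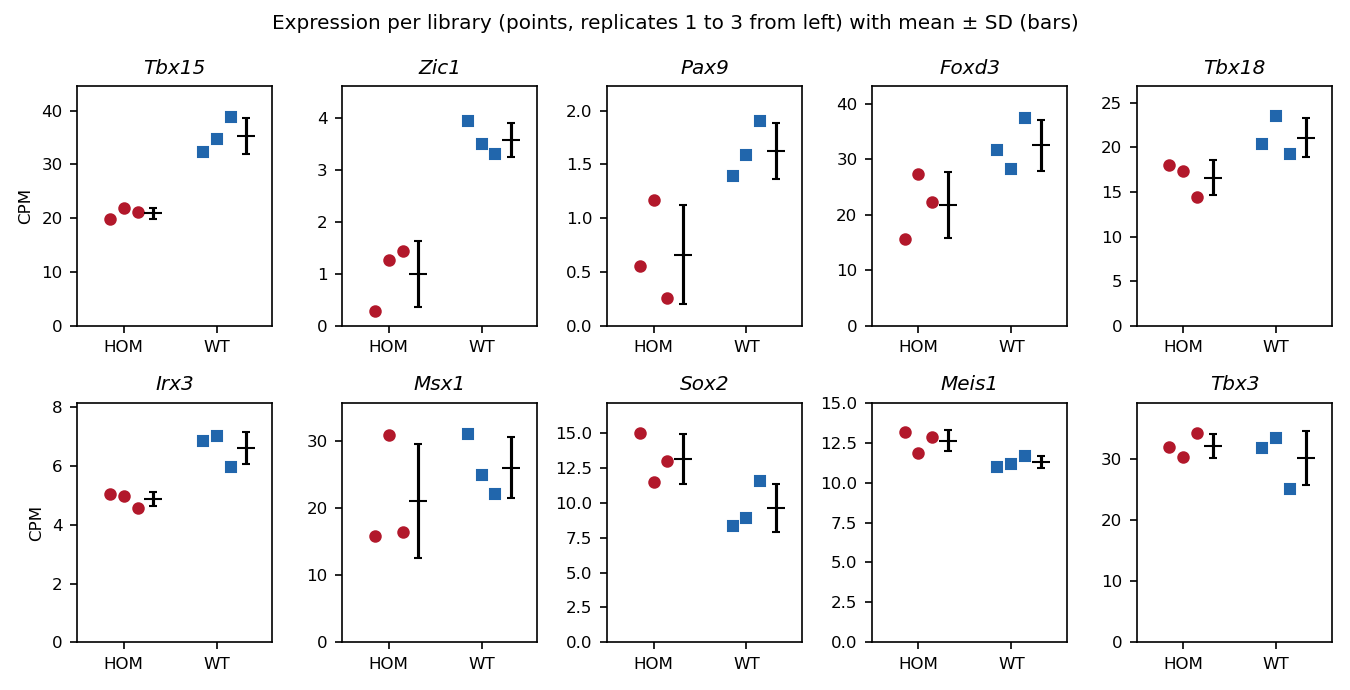
CPM (y axis, from 0) in each library for 10 of the tested genes, mutant libraries as red circles left of wild-type libraries as blue squares, with mean ± SD (n = 3 each) beside them. Tbx15 and Zic1 were called lower; Msx1 shows mutant replicate 2, the middle red point, at 31.0 CPM beside 15.8 and 16.5 CPM in the others.

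Of the 24 neural and neural crest factors, 4 were tested (median log2 fold change -0.35). Among these 4, 1 fell and 0 rose, where 11.5% of all genes tested fell and 9.67% rose. The 20 not tested held 80 mutant reads and 106 wild-type reads. The gene that fell was Zic1, a zinc finger factor of dorsal neural tube and somite (ENSMUSG00000032368, chromosome 9, positions 91358058 to 91365810, minus strand), whose CG-rich start is printed above. Zic1 had 2, 12 and 11 reads in mutant libraries, against 34, 22 and 26 reads in wild-type libraries, or 0.280, 1.27 and 1.44 CPM in mutant libraries, against 3.93, 3.5 and 3.30 CPM in wild-type libraries. The groups did not overlap, and mutant replicate 1 was the lowest. The log2 fold change was -1.80 (SE 0.42, adjusted p = 0.0155). Leaving out wild-type replicate 1 gave an adjusted p of 0.0647, so the call was lost. Without mutant replicate 1 the log2 fold change was -1.39, and the gene still passed (adjusted p = 0.0315). Zic4, which shares 60 exon bases with Zic1 on the opposite strand, had at most 5 reads in a library.

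Foxd3, a forkhead repressor that keeps neural crest and glial precursors undifferentiated, stood at 15.7, 27.4 and 22.3 CPM in mutant libraries, against 31.7, 28.3 and 37.5 CPM in wild-type libraries. The groups did not overlap, but mutant replicate 2 came close to the lowest wild-type library. The log2 fold change was -0.57 (SE 0.20, adjusted p = 0.0643), and -0.78 (adjusted p = 0.0101) without mutant replicate 2. It also passed with limma's voom and sample quality weights (adjusted p = 0.0193) and in edgeR without a filter on low counts (adjusted p = 0.0045). Foxd3 did not pass with DESeq2 (adjusted p = 0.0522), nor in edgeR with library totals only (0.0844) or the Y-linked covariate (0.115). When any 1 library other than mutant replicate 2 was left out, its adjusted p in edgeR ran from 0.0818 to 0.187. Sox2, an SRY-box factor of stem cells and of glial precursors, had 15, 11.5 and 13.0 CPM in mutant libraries, against 8.33, 8.90 and 11.6 CPM in wild-type libraries. Mutant libraries were mostly the higher ones, with overlap, and the gene did not pass (log2 ratio 0.45, SE 0.20, adjusted p = 0.129). Of the 8 Schwann cell and glial markers, 2 were called higher and 4 lower, where 9.67% and 11.5% of all genes tested were. Their sum overlapped between the genotypes. The part of such cells in Foxd3 and Sox2 was not tested. En1, a homeobox factor of midbrain and ventral limb, had 2.24, 2.23 and 1.83 CPM in mutant libraries, against 2.66, 1.75 and 2.41 CPM in wild-type libraries, with overlap (adjusted p = 0.792).

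Of the 13 factors of endoderm, heart, blood and gonad, 3 were tested and 0 passed, and none of the 3 had an unadjusted p under 0.05. Runx1, the founding factor of blood stem cells and a gene of activated muscle precursors, had the most reads of the 56. It stood at 84.6, 93.5 and 82.6 CPM in mutant libraries, against 62.3, 70.7 and 98.5 CPM in wild-type libraries, and wild-type replicate 3 was the highest of all (log2 ratio 0.17, SE 0.16, adjusted p = 0.475). Markers of blood cells were low, at 31.9 to 48.3 CPM summed over 8 markers in mutant and 29.4 to 61.6 CPM in wild-type libraries. Sox17, an SRY-box factor of endoderm and arterial endothelium, had 10.3, 20.8 and 14.7 CPM in mutant libraries, against 26.8, 12.9 and 14.7 CPM in wild-type libraries (adjusted p = 0.589). The spread within each genotype exceeded the gap between them. 9 endothelial markers summed to 326, 619 and 413 CPM in mutant libraries, against 680, 417 and 533 CPM in wild-type libraries. The libraries highest and lowest in Sox17, wild-type replicate 1 and mutant replicate 1, were also highest and lowest in that sum. The part of endothelial cells in Sox17 was not tested. Gata6, a zinc finger factor of endoderm and heart, had 3.5, 2.54 and 2.36 CPM in mutant libraries, against 2.20, 1.91 and 3.68 CPM in wild-type libraries, with overlap (adjusted p = 0.873).

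**Figure D4:**
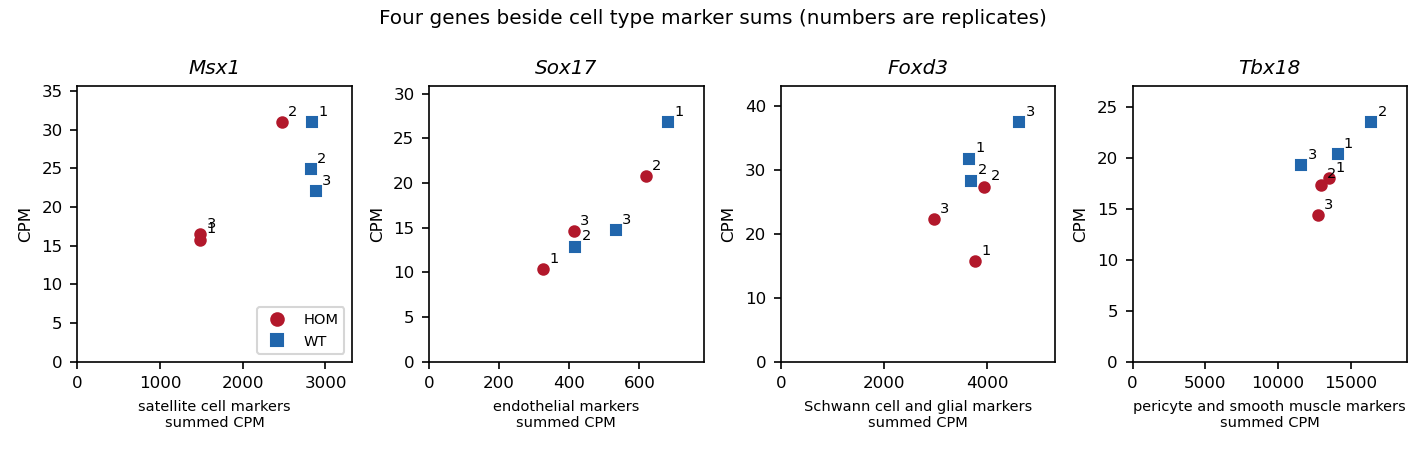
CPM of Msx1, Sox17, Foxd3 and Tbx18 (y axes) against the summed CPM of a marker list (x axes) in the 6 libraries, mutant as red circles and wild type as blue squares, with replicate numbers. Sox17 and the endothelial sum are lowest in mutant replicate 1 (10.3 and 326 CPM) and highest in wild-type replicate 1 (26.8 and 680 CPM). The other panels match their sums at only 1 end. Msx1 and its sum share the lowest library but not the highest. Foxd3 and Tbx18 share the highest library with their sums but not the lowest. The pericyte and smooth muscle list held markers called in both directions.

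Between genes, levels were compared per kilobase of annotated exon. Foxd3 was the highest member on this scale, at 9.36 CPM per kilobase in mutant and 14.0 in wild-type libraries, followed in mutant libraries by Runx1 (7.23) and Msx1 (6.81) and in wild-type libraries by Tbx15 (9.43) and Msx1 (8.40). Of the tested members Pax9 was lowest, at 0.131 CPM per kilobase in mutant and 0.322 in wild-type libraries. The order of neighbours such as Runx1 and Msx1 lies within the spread between libraries.

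The 38 members that could not be tested held 171 mutant reads and 201 wild-type reads. By library they held 50, 66 and 55 reads in mutant libraries, against 76, 69 and 56 reads in wild-type libraries, or 6.99, 7.0 and 7.20 CPM in mutant libraries, against 8.80, 11.0 and 7.11 CPM in wild-type libraries. The mutant libraries were alike, and wild-type replicate 3 stood among them, so the groups overlapped. The pooled ratio of mutant to wild type was 0.80, with an exact 95% interval of 0.65 to 0.99 that covers counting error only, and it ran from 0.73 to 0.88 when any 1 library was left out. The sums and this ratio include Runx2, which went the other way with 37 mutant reads and 14 wild-type reads. The ratio was 0.65 without Nkx2-2 and Runx2, which reached 1 CPM in 3 libraries, and 0.80 without Nkx2-2 alone. 18 to 20 of the 38 had a read in a mutant library, and 18 to 19 in a wild-type library. 8 of them had more reads in the mutant group, 15 had more in the wild-type group, 4 had equal numbers and 11 had none.

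The most abundant of these low genes were not all neural. Nkx2-2, a homeobox factor of ventral spinal cord, had 6, 7 and 11 reads in mutant libraries, against 11, 10 and 7 reads in wild-type libraries. Its antisense neighbour Nkx2-2os, which shares 278 exon bases with it, passed the filter and had 9, 18 and 16 reads in mutant libraries, against 28, 15 and 23 reads in wild-type libraries (log2 ratio -0.70, SE 0.31, adjusted p = 0.140). Runx2, the bone factor, had 6, 13 and 18 reads in mutant libraries, against 3, 7 and 4 reads in wild-type libraries. Its pooled ratio was 2.49 (95% counting interval 1.31 to 4.98), but the groups overlapped, since mutant replicate 1 had fewer reads than wild-type replicate 2.

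Emx2, a homeobox factor of cortex and urogenital tract, had 5, 1 and 1 reads in mutant libraries, against 8, 10 and 5 reads in wild-type libraries, a pooled ratio of 0.29 (interval 0.10 to 0.69). Pou4f1, named above for its CG-rich start, had 3, 1 and 1 reads in mutant libraries, against 5, 5 and 6 reads in wild-type libraries, a pooled ratio of 0.29 (interval 0.084 to 0.84). Every mutant library held fewer Pou4f1 reads than every wild-type library, on very few reads. In a fit without a filter on low counts Emx2 had an adjusted p of 0.0687, Runx2 of 0.105 and Pou4f1 of 0.170, so none of the 3 passed.

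For the other low members with at least 10 reads, the genotypes could not be told apart at this depth. Tbx5, which specifies forelimb and heart, had 14 mutant reads and 19 wild-type reads. Alx4, a homeobox factor of limb and skull, had 9 mutant reads and 18 wild-type reads. Msx2, the paralogue of Msx1, had 0, 5 and 1 reads in mutant libraries, against 4, 4 and 4 reads in wild-type libraries. Lhx2, a LIM homeobox factor of eye and forebrain, had 2, 3 and 1 reads in mutant libraries, against 3, 4 and 3 reads in wild-type libraries, and its groups did not overlap once scaled for depth. Eomes, a T-box factor of early mesoderm, had 3 mutant reads and 8 wild-type reads. Those with more reads in the mutant group were Gata3, a factor of T cells, ear and kidney (14 reads, against 10 in wild type), Isl1, a LIM homeobox factor of motor neurons and heart (11, against 9), and Nkx6-1, of spinal cord and pancreas (8, against 6). The interval of the pooled ratio spanned 1 for each of these 8 genes.

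A further 15 members had 1 to 9 reads in all. They were En2, Neurog2, Lmx1b, Zic2, Pax6, Lhx9, Gbx2, Hand2, Wt1, Gata4, Otx2, Dlx5, Lhx1, Barx1 and Foxa2. Pax6, the eye and brain factor, had 2 mutant reads and 2 wild-type reads, and Gata4, the heart and endoderm factor, had 1 mutant read and 2 wild-type reads. Of these genes Lhx1 had reads only in mutant libraries, 2 in all, and Foxa2 only in a wild-type library, 1 in all.

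The 11 members without a read were Pax2, Sox1, Foxa1, Nkx2-1, Nkx2-5, Olig2, Neurog1, Neurod1, Hand1, Dlx6 and Evx1. They specify kidney, neural plate, gut, thyroid and lung, heart, oligodendrocytes and neurons. A count of 0 allows up to 3 reads over a group, or 0.124 CPM in mutant and 0.132 CPM in wild-type libraries, a limit that covers counting error only. Expression of these 11 genes was thus not detectable at this depth in either genotype.

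A longer list of 101 other developmental transcription factors gave a setting for the 56. Of these, 28 were tested, 8 fell and 1 rose (28.6% lower, where 11.5% of all genes tested were lower), with a median log2 fold change of -0.44. The 4 with the smallest p were Prrx1, a homeobox factor of limb mesenchyme, Pitx3, a homeobox factor of eye and muscle, Sox11, an SRY-box factor of progenitors, and Sox8, an SRY-box factor found in satellite cells and glia. Prrx1 was at 41.8, 56.8 and 38.9 CPM in mutant libraries, against 92.5, 83.9 and 87.0 CPM in wild-type libraries (log2 ratio -0.93, SE 0.15, adjusted p = 0.0029). Sox11 was at 7.41, 20.7 and 7.20 CPM in mutant libraries, against 36.8, 37.0 and 40.6 CPM in wild-type libraries (log2 ratio -1.67, SE 0.33, adjusted p = 0.0077, and -2.38 without mutant replicate 2). For Sox11, as for Msx1, mutant replicate 2 stood highest in its group.

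Pitx3 changed by -2.14 on the log2 scale (SE 0.42, adjusted p = 0.0070) and Sox8 by -0.73 (SE 0.16, adjusted p = 0.0128). Sox8 did not pass without mutant replicate 1, mutant replicate 3 or wild-type replicate 1 (adjusted p from 0.0507 to 0.0600). The gene that rose was Phox2a, a homeobox factor of autonomic neurons, at 1.54, 1.91 and 3.27 CPM in mutant libraries, against 0, 1.11 and 0.508 CPM in wild-type libraries (log2 ratio 2.15, SE 0.69, adjusted p = 0.0492). It did not pass without mutant replicate 1 or 3 or wild-type replicate 1 or 3 (adjusted p from 0.0704 to 0.155). The list's number of lower genes was 3 without mutant replicate 1, 4 without mutant replicate 3, 3 without wild-type replicate 1, 5 without wild-type replicate 2 and 12 without mutant replicate 2. In the same order, those runs called 1587, 1576, 1602, 1818 and 4002 genes over all genes tested, in either direction. The 73 of the list that could not be tested held 207 mutant reads and 243 wild-type reads. In the same fit, satellite cell markers fell for 6 of 12 and rose for 0. Fibro-adipogenic markers fell for 6 of 9 and rose for 1, Pdgfra, where 11.5% of all genes tested fell and 9.67% rose. The part of these markers in the list's counts was not tested.

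**Figure D5:**
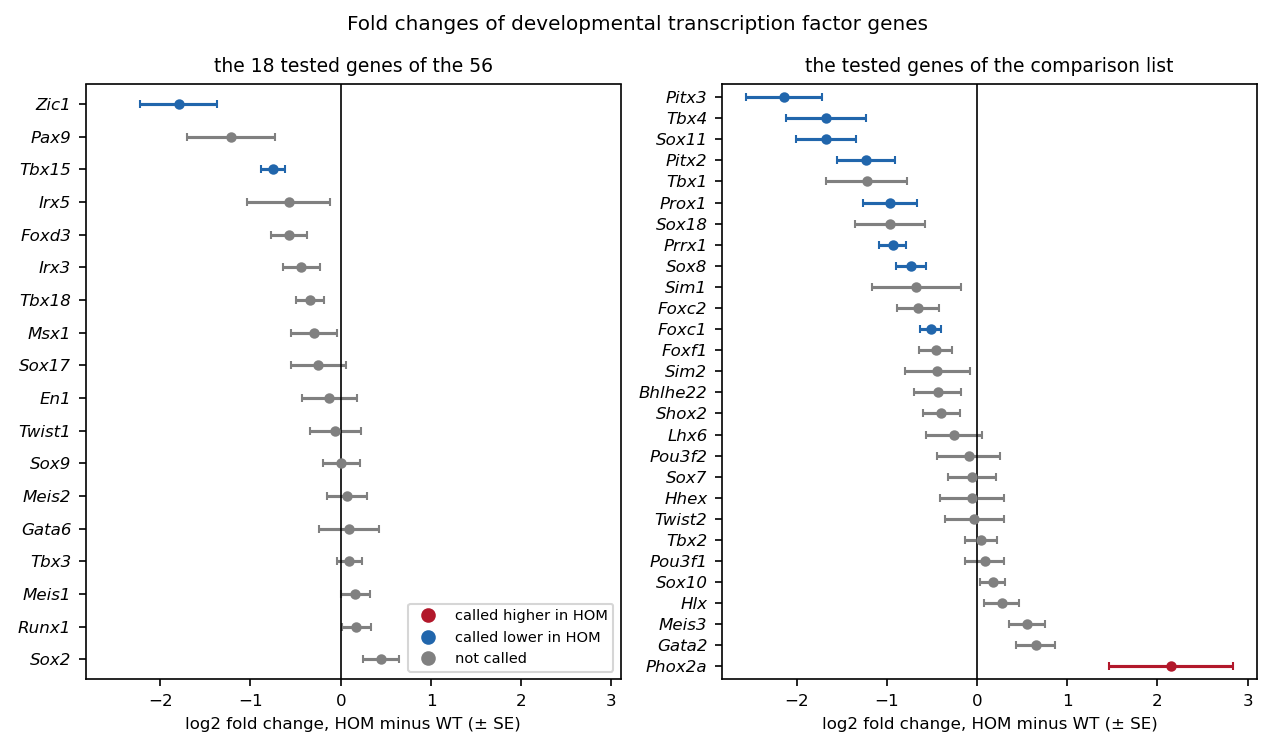
Log2 fold change, mutant minus wild type, with its standard error (x axes) for the 18 tested genes of the 56 (left) and the 28 tested genes of the list of 101 other developmental transcription factors (right), blue where called lower, red where called higher and grey where not called. On the left only Zic1 (-1.80) and Tbx15 (-0.75) are blue and none is red.

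The Polycomb subunits were all measured. Of 12 PRC2 genes 2 rose and 1 fell, and of 19 PRC1 genes 3 rose and 0 fell, where 9.67% of all genes tested were called higher and 11.5% lower. Without mutant replicate 1, 3 of the 31 were higher and 0 lower, and without mutant replicate 2, 7 were higher and 3 lower. Over all genes tested, those runs called 1587 of 14494 and 4002 of 14531 genes in either direction. The summed level of PRC2 genes was 861, 819 and 770 CPM in mutant libraries, against 772, 832 and 831 CPM in wild-type libraries, and that of PRC1 genes 734, 738 and 733 CPM in mutant libraries, against 705, 639 and 736 CPM in wild-type libraries, so both sums overlapped. Ezh1, a PRC2 methyltransferase of non-dividing cells, had 118, 118 and 101 CPM in mutant libraries, against 66.5, 48.3 and 58.8 CPM in wild-type libraries (log2 ratio 0.95, SE 0.14, adjusted p = 0.0019). Cbx7, a PRC1 chromodomain subunit, had 60.8, 78.6 and 72.7 CPM in mutant libraries, against 36.9, 22.4 and 33.6 CPM in wild-type libraries (log2 ratio 1.18, SE 0.18, adjusted p = 0.0025). Neither pair of groups overlapped, and both genes passed without any 1 library.

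The other called subunits had smaller levels or changes. Epop, a PRC2-associated protein that links it to elongin, had 8.25, 9.12 and 10.1 CPM in mutant libraries, against 5.44, 3.97 and 4.44 CPM in wild-type libraries (log2 ratio 0.98, SE 0.21, adjusted p = 0.0113). Cbx2, a PRC1 chromodomain subunit that compacts chromatin, had 14.7, 13.0 and 10.5 CPM in mutant libraries, against 8.80, 5.09 and 7.36 CPM in wild-type libraries (log2 ratio 0.83, SE 0.23, adjusted p = 0.0305). Cbx2 did not pass without mutant replicate 1 (adjusted p = 0.10), wild-type replicate 2 (0.0821) or wild-type replicate 3 (0.0714). Pcgf5, a PRC1 ring-finger subunit, rose (log2 ratio 0.56, SE 0.15, adjusted p = 0.0254), and Jarid2, which helps bring PRC2 to its targets, fell (log2 ratio -0.45, SE 0.14, adjusted p = 0.0418). Pcgf5 did not pass without mutant replicate 1, mutant replicate 3 or wild-type replicate 1 (adjusted p from 0.0587 to 0.110), and Jarid2 passed only without mutant replicate 2 (otherwise from 0.0570 to 0.145 when 1 library was left out). Jarid2 also did not pass when scaled by library totals only (adjusted p = 0.0585) or with Y-linked reads as a covariate (0.0943), nor did Cbx2 with that covariate (0.0614).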

How the data were processed

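RNA-seq was made from satellite cells sorted by flow cytometry from hind limb and used freshly isolated, with a stranded total RNA kit that removes ribosomal RNA, per the labels' protocols. Each deposited table holds 1 library's raw counts of reads, listed by Ensembl gene ID. The submitters' processing notes name Trimmomatic 0.32, STAR 2.5.2b, HTSeq 0.6.1 and the build mm10; for strand setting and annotation release, the sources used here state nothing. Summary lines, which name no gene and held 45.0% to 49.8% of each table's counts, were left out of library sizes and tests. Symbols, positions and exon lengths came from GENCODE M21 (build GRCm38, the same as mm10), which matched 38861 of 39059 gene IDs.

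Genes were tested with edgeR 4.0.16 in R 4.3.3 (TMM scaling, filterByExpr with a minimum count of 10 and a total of 15, quasi-likelihood F test, mutant against wild type, all 6 libraries, no covariates), with Benjamini-Hochberg adjustment over all 14099 genes that passed and a threshold of 0.05. SE is the log2 fold change divided by the square root of F. CPM used TMM-scaled totals. Pooled ratios of low genes carry exact conditional 95% intervals, which cover counting error only, since reads carried no molecular identifiers. Alternatives were other size factors, DESeq2 1.42.0, limma 3.58.1 with voom and sample quality weights, other filters, a replicate block, the presence of Y-linked reads as covariate (present in mutant replicate 2 and wild-type replicates 2 and 3), a test against a fold change of 1.5, and leaving out libraries, singly and both replicates 2 together, since these were high in reads of Gm42418. The fitting code was tested on simulated data. No pair of libraries looked like 1 library deposited more than once.

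The members and the other lists were chosen with earlier results of these data known. All 56 were accounted for: tested members were named with values per library, untested ones with counts where the 6 libraries held at least 10 reads, and of other lists up to 4 called genes with the smallest p. The tested member with the fewest reads, Pax9, had 54 reads, and the untested member with the most, Nkx2-2, had 52. Of the 56, 22 share exon bases with another gene, 20 of them on the opposite strand.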

Additional observations from a re-analysis of the deposited data

How the results depend on the processing

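No member was called higher under any alternative run, and 257 of 288 values of single members under alternatives kept their direction and side of the threshold. The number of members called lower was 4 with limma's voom and quality weights (Foxd3 and Pax9 added), 5 without both replicates 2 (Foxd3, Msx1 and Pax9 added) and 0 in a test against a fold change of 1.5, and it ran from 1 to 5 when 1 library was left out. Over all genes tested, calls in either direction numbered 4104, 3858 and 533 in those 3 runs. They ran from 1576 to 4002 when 1 library was left out, against 2980 in the main fit. Of the other developmental factors, 2 were called lower in the test against a fold change of 1.5, and 3 to 12 when 1 library was left out; 2 were called higher with voom and without both replicates 2, 0 with a filter of 1 CPM, with the Y-linked covariate and in the test against a fold change of 1.5, and 0 to 1 when 1 library was left out. The cause of these changes was not tested. Members with log2 fold changes near 0 turned sign. Sox9 was at -0.19 with voom, -0.0020 without a filter and -0.26 without both replicates 2. Twist1 was at 0.019 with voom and 0.15 without both replicates 2, which put Gata6 at -0.0055 and Meis2 at -0.011. With 1 library left out, Sox9 ran from -0.19 to 0.21, Twist1 ran from -0.24 to 0.21, Gata6 ran from -0.084 to 0.43, Meis2 ran from -0.048 to 0.26, Sox17 ran from -0.55 to 0.15 and Tbx3 ran from -0.022 to 0.18.

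The correlations of same-numbered deviations were -0.04, 0.02 and -0.10, which showed no pairing of libraries by replicate number. Both replicates 2 nonetheless had a high Gm42418 share, 1.30% in mutant and 1.39% in wild type. Whether they were prepared together was not tested. With a replicate block, 2 members were lower, Sox9 was at -0.024, Foxd3 had an adjusted p of 0.0653 in edgeR, and 2437 genes were called in all, against 2980 without the block. Of the Polycomb subunits, Jarid2 (adjusted p = 0.0689) and Pcgf5 (0.0513) did not pass in edgeR with the block, and Cbx2 did not pass without both replicates 2 (0.0699).

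Depth limits the 38 untested members, for which 1 read was worth 0.106 to 0.159 CPM.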
